A study of Mus musculus with 6 samples.

Results

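The genes described here are those of antigen presentation by major histocompatibility complex (MHC) class II molecules, in CD8+ T cells of C57BL/6 mice. They were chosen by name, as 10 genes that encode the class II chains, the invariant chain, the transactivator of the locus and the chains of the peptide-loading factors DM and DO. A gene counted as measured if a probe set of the array named it alone, and 9 of the 10 were measured, among 22180 genes in all. Cd74, which encodes the invariant chain, was read by a probe set that also names the microRNA gene Mir5107. It therefore had no test of its own, and the values of that probe set are given separately.

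Expression was measured on 6 whole-transcript arrays, of which 3 carry the label wild type and 3 the label Dot1l knockout. Dot1l encodes a methyltransferase that acts on a lysine in the core of histone H3, and the comparison asks which transcripts differ between CD8+ T cells with and without it. Per the labels, the knockout came from crossing Dot1l flox/flox mice with CD4-Cre mice, so that Cre comes from Cd4 control elements, which work in T cells from the thymus on and are silent in B cells. CD8+ T cells came from spleen and peripheral lymph nodes, were purified by magnetic selection of a kit and were not cultured or treated. The labels do not say whether the wild type mice carried the floxed allele or Cre, and they give no ages. Nothing in them ties each array to its own mouse, so the spread behind the p-values may be that of technical repeats.

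Class II molecules are pairs of an alpha and a beta chain that show peptides from endosomes to CD4+ T cells. In the mouse they are made mainly by B cells, dendritic cells and macrophages, and resting mouse T cells are not known as a main source. The invariant chain guards the groove of a new class II molecule, DM exchanges its remnant for peptide, and DO restrains DM. Transcription depends on Ciita, a coactivator that binds no DNA itself but joins a protein complex on an X box and a Y box in front of the class II genes.

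The promoters of 4 genes are shown: those of H2-Aa and H2-DMb2, the class II genes called higher below, and those of H2-Eb1 and H2-DMb1, a class II chain and a DM chain that were not called. The sequences are the 150 bases before the RefSeq start site on build GRCm38.p6, written 5′ to 3′ on the strand of the gene. They lie at chr17:34287824-34287973 (minus strand), chr17:34145099-34145248 (plus strand), chr17:34305717-34305866 (plus strand) and chr17:34153041-34153190 (plus strand), upstream of the first exon of each gene. Capitals mark matches to the X box consensus with at most 1 mismatch, to the Y box core TGATTGG, or to the cAMP response element TGACGTCA.
H2-Aa: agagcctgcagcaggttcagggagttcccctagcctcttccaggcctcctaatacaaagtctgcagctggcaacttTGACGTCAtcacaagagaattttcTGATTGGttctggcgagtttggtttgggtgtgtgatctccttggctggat
H2-DMb2: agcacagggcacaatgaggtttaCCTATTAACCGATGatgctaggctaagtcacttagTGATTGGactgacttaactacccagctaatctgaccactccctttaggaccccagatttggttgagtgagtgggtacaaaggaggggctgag
H2-Eb1: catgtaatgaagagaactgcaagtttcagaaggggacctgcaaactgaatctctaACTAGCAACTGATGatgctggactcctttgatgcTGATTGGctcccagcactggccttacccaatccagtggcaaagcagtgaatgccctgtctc
H2-DMb1: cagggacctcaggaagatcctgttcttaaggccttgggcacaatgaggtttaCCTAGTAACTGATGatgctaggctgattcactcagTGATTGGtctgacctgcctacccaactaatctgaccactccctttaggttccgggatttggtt

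RefSeq promoter windows were at hand for 7 of the 10 genes, in 8 windows, and the 250 bases before each start were searched on both strands. The Y box core was found in 6 of these 7 genes and in 7.23% of 32851 mouse promoter windows of the same length. The X box consensus, 14 bases long, was found in H2-Eb1, H2-DMb1, H2-DMb2 and H2-Ob, against 0.569% of all windows, and both motifs stood together in 0.0791% of all windows. In H2-DMb1 and H2-DMb2 alike, 21 bases separated the X box from the Y box core, and in H2-Eb1 20 bases did. H2-Aa held the cAMP response element 16 bases before its Y box core, and 1.55% of all windows held that element. It had no match to the X box consensus with at most 1 mismatch, which does not show that it lacks an X box. The motifs did not overlap each other. H2-Oa held the Y box core without a match to the X box consensus, and neither window of H2-DMa held a match.

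**Figure D1:**
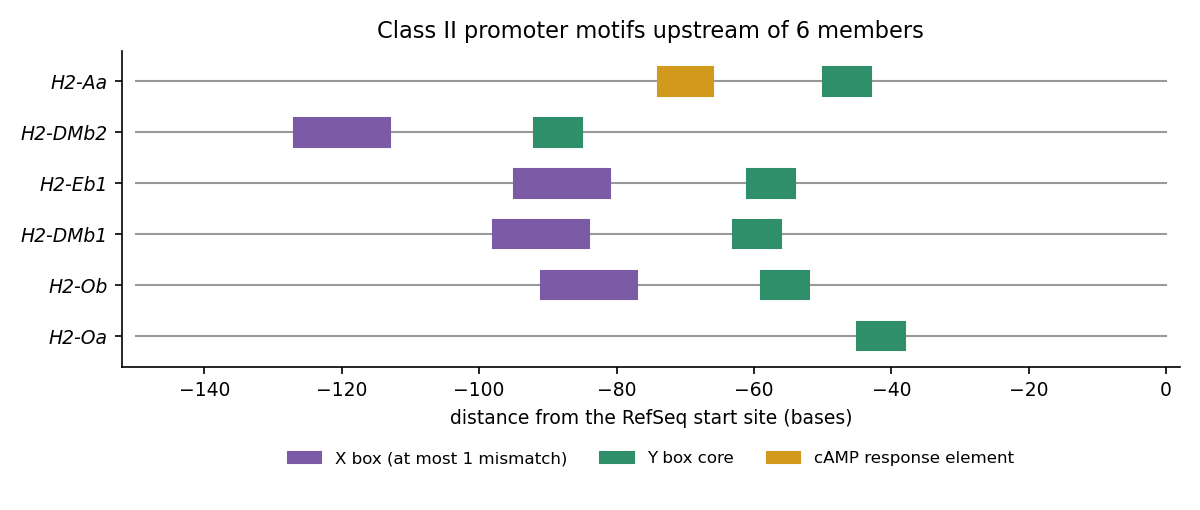
Positions of motif matches in the 150 bases before the RefSeq start site of 6 class II genes, with distance from the start in bases on the horizontal axis. The X box lies upstream of the Y box core in H2-DMb2, H2-Eb1, H2-DMb1 and H2-Ob.

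Some facts of the arrays bear on all values. The Dot1l transcript was no lower in arrays labelled knockout than in wild type ones, at 7.3 ± 0.04 against 7.2 ± 0.25 on the log2 scale (SD, n = 3 each, as for all values below; limma adjusted p = 0.765). The labels do not name the deleted exon, and a probe set outside it would not check the labels, so directions refer to arrays as labelled. Wild type replicate 3 stood apart for some lymphocyte transcripts: it was the highest of the wild type arrays in all 7 probe sets that name the immunoglobulin gene Ighm alone, by 0.18 to 3.14 log2 units over the mean of the other two. It was also the highest wild type array for 6 of the 9 class II genes, beside 29.9% of all genes. CD8+ T cell transcripts were high, with Cd8a at 11.12 and 10.95 in wild type and knockout-labelled arrays, Cd8b1 at 11.26 and 11.21, and Cd3e at 11.83 and 11.74. Cd4, at 3.79 and 3.86, lay at the background guide of 3.83, the level below which 95% of 1394 olfactory and vomeronasal receptor genes fell. These levels do not measure how many other cells were present.

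Among the class II genes, 2 were higher in knockout-labelled arrays, H2-Aa and H2-DMb2, none was lower, and 7 did not pass. Here and below, to pass means an adjusted p under 0.05 over all genes measured. The 2 higher genes are 22.2% of the 9 measured, beside 4.3% of all 22180 genes called higher and 1.2% called lower. Over all genes 954 were higher and 266 lower, or 625 and 470 after another quantile normalization. The median log2 difference of the 9 genes was -0.035, beside -0.012 over all genes. The groups did not overlap for 4 genes, each higher in knockout-labelled arrays, and 13.7% of all genes showed such a separation in that direction, 9.78% in the opposite one and 23.5% in either. Since RNA came from bulk samples, fewer cells of a type and less RNA per cell cannot be told apart in any of these values.

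H2-Aa encodes the alpha chain of the class II molecule I-A. It read 4.39, 4.54 and 5.27 in wild type replicates 1 to 3 and 6.11, 5.72 and 6.01 in knockout-labelled replicates 1 to 3. All knockout-labelled arrays lay above all wild type arrays, and wild type replicate 3 lay nearest to them. The mean rose from 4.73 ± 0.47 to 5.95 ± 0.20, a log2 difference of 1.21 (SE 0.21, 95% interval 0.73 to 1.70, 2.32-fold, adjusted p = 0.0108). The call was lost without knockout replicate 1 (adjusted p = 0.0515) and without knockout replicate 3 (0.0533), while the difference stayed between 1.04 and 1.48 over the 6 fits that left out 1 array.

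H2-Ab1 encodes the beta chain that pairs with H2-Aa. Its wild type values were 4.62, 5.14 and 6.12, and its knockout-labelled values 6.34, 6.19 and 6.60. The groups did not overlap, by a margin of 0.078, and wild type replicate 3 was 1.24 above the mean of the other two wild type arrays. The difference of 1.09 (SE 0.31, 95% interval 0.38 to 1.79, adjusted p = 0.0875) did not pass. Without wild type replicate 3 it was 1.50 (adjusted p = 0.00439), and without wild type replicate 1 it was 0.75 (0.164).

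H2-Eb1 encodes the beta chain of the other class II molecule, I-E, whose alpha chain C57BL/6 mice do not make, so that I-E does not reach the surface in this strain. It read 5.73, 5.25 and 6.14 in wild type and 5.96, 5.55 and 5.44 in knockout-labelled arrays. The groups overlapped throughout, and wild type replicate 3 was again the highest wild type array. The difference was -0.054 (SE 0.22, 95% interval -0.54 to 0.44, adjusted p = 0.935). An interval this wide leaves room for a change of up to 0.54 in size, but its upper end lies below the lower end of the H2-Aa interval.

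The chains were also set against each other within single arrays, in a comparison chosen after the values were seen. It restates the differences given above, so its p-values add no further support. The log2 value of H2-Aa minus that of H2-Eb1 was -1.34, -0.71 and -0.87 in wild type arrays and 0.15, 0.17 and 0.56 in knockout-labelled arrays. That balance shifted by 1.27 between the groups, with no overlap (exact two-sided permutation p = 0.1, the smallest that 3 against 3 arrays allow). Such a balance does not depend on how whole arrays are scaled. For H2-Ab1 minus H2-Eb1 the shift was 1.14, also without overlap (exact permutation p = 0.1).

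**Figure D2:**
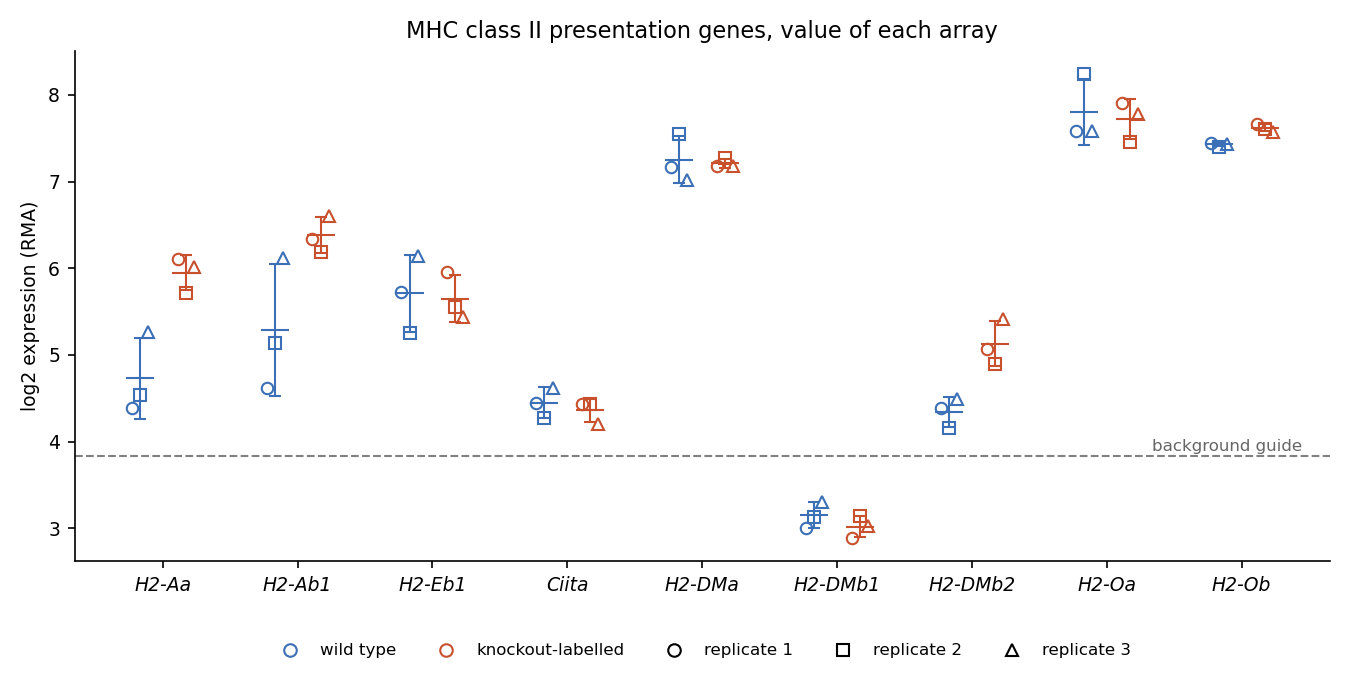
Log2 expression (vertical axis) of the 9 measured class II genes (horizontal axis) in each array, with symbols for replicates and bars for the mean ± SD of 3 arrays. The knockout-labelled arrays of H2-Aa, H2-Ab1, H2-DMb2 and H2-Ob lie above their wild type arrays, and H2-DMb1 lies below the dashed background guide of 3.83.

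The probe set that names both Cd74 and Mir5107 read 7.05, 7.10 and 7.68 in wild type and 8.02, 7.50 and 7.83 in knockout-labelled arrays. The groups overlapped, because wild type replicate 3 exceeded knockout replicate 2. The difference was 0.51 (SE 0.21, adjusted p = 0.284 over all probe sets) and did not pass, and the probe set cannot say which of its 2 genes was read.

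DM is a pair of an alpha chain, from H2-DMa, and a beta chain, from H2-DMb1 or the closely related H2-DMb2. H2-DMb2 read 4.39, 4.16 and 4.49 in wild type and 5.07, 4.90 and 5.41 in knockout-labelled arrays, without overlap. It rose from 4.34 ± 0.17 to 5.13 ± 0.26, a difference of 0.78 (SE 0.15, 95% interval 0.45 to 1.12, 1.72-fold, adjusted p = 0.0157). The call was lost without knockout replicate 1 (adjusted p = 0.0523), without knockout replicate 3 (0.059) and when p-values were adjusted over all probe sets (0.0513).

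H2-DMb1 read 3.0, 3.13 and 3.31 in wild type and 2.89, 3.14 and 3.03 in knockout-labelled arrays, below the background guide in every array. Its difference was -0.13 (SE 0.12, adjusted p = 0.644), at a level where RMA compresses differences. The 2 genes are near copies, so their probe sets may share signal. H2-DMa, bright at 7.25 ± 0.27 in wild type and 7.21 ± 0.05 in knockout-labelled arrays, differed by -0.035 (SE 0.14, 95% interval -0.35 to 0.28, adjusted p = 0.934). Its highest and its lowest value were both wild type, 7.55 in replicate 2 and 7.02 in replicate 3.

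DO, the inhibitor of DM found mostly in B cells, is made from H2-Oa and H2-Ob. H2-Ob was the most even of the class II genes within groups, at 7.44, 7.40 and 7.43 in wild type and 7.66, 7.61 and 7.57 in knockout-labelled arrays. The groups did not overlap, yet the difference of 0.19 (SE 0.09, 95% interval -0.022 to 0.40, adjusted p = 0.339) did not pass. H2-Oa read 7.58, 8.24 and 7.58 in wild type and 7.91, 7.46 and 7.78 in knockout-labelled arrays, which overlapped. It differed by -0.082 (SE 0.19, adjusted p = 0.877), and without wild type replicate 2, its highest array, by 0.14. A further probe set, which names H2-Oa and BC051537, lay below the background guide and differed by -0.18 (adjusted p = 0.425 over all probe sets).

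Ciita, the transactivator itself, was weakly expressed and gave no called difference. It read 4.45, 4.27 and 4.62 in wild type and 4.44, 4.44 and 4.21 in knockout-labelled arrays, a difference of -0.088 (SE 0.12, 95% interval -0.37 to 0.19, adjusted p = 0.777). That interval reflects the spread between arrays only, and RMA compresses differences of dim probe sets. Whether Ciita RNA rose by more than 0.19 therefore cannot be told from it.

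**Figure D3:**
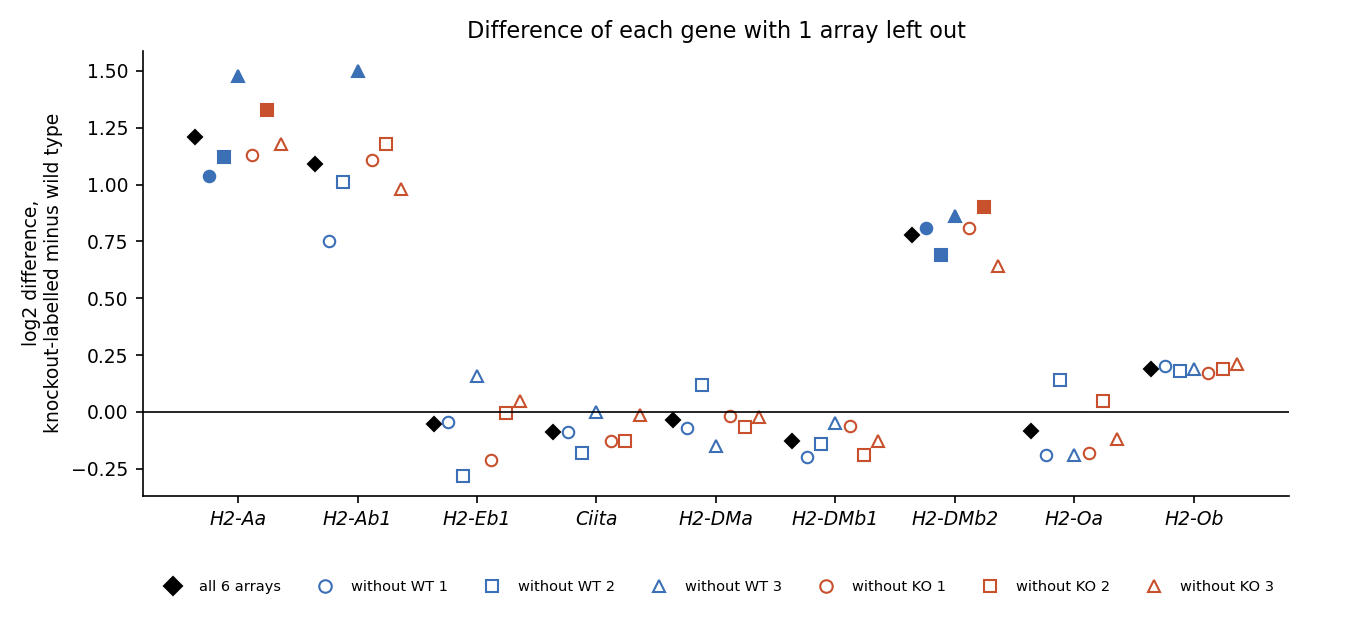
Log2 difference, knockout-labelled minus wild type (vertical axis), of each class II gene with all 6 arrays (black) and with 1 array left out (coloured by the group and shaped by the replicate left out; filled where the adjusted p is under 0.05). H2-Ab1 passes in the fit without wild type replicate 3, at 1.50, and in none of the other 5 such fits.

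The RFX and NF-Y complexes and Creb1 are the proteins that hold the X and Y boxes, and none of their measured transcripts was called. Of the 7 genes, 0 passed in limma, against 5.5% of all genes called in either direction, and 1 was at an unadjusted p under 0.05. The 7 genes are too few to set the list apart from that share. Nfya, a subunit of the Y box factor, read 8.80 ± 0.07 in wild type and 8.44 ± 0.10 in knockout-labelled arrays (-0.35, SE 0.10, adjusted p = 0.0935). Its groups did not overlap, and it passed with trend and robust fitting (0.026) and among genes above the median level (0.0443). Differences of Nfyc (-0.19), Rfx5 (0.19), Creb1 (-0.12) and Rfxank (-0.12) were within 0.20 of 0.

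Genes that prepare peptides and turn class II molecules over held several called changes, with 3 of 9 higher, 0 lower and a median difference of 0.26. Over all genes 4.3% were called higher and 1.2% lower. Ifi30, a thiol reductase that unfolds antigens in lysosomes, rose 1.87-fold from 6.62 ± 0.32 to 7.53 ± 0.16 (0.90, SE 0.16, adjusted p = 0.0121). Its wild type values of 6.53, 6.98 and 6.36 lay below all knockout-labelled values of 7.65, 7.35 and 7.59. The call was lost without knockout replicate 1 (0.057) and knockout replicate 3 (0.0598). Ctsd, a lysosomal aspartic protease, rose by 0.64 (SE 0.14, adjusted p = 0.0273), and Ctsl, a lysosomal cysteine protease, rose by 0.58 (SE 0.13, 0.0297). Each kept its call in 1 of the 6 fits with an array left out, Ctsd without wild type replicate 2 and Ctsl without wild type replicate 1. Without the other arrays the adjusted p ran from 0.0591 to 0.112 for Ctsd and from 0.0563 to 0.132 for Ctsl. After median centring neither passed (0.0534 and 0.0539), and Ctsl did not pass after another quantile normalization (0.0947). Ctss, the protease that trims the invariant chain, differed by 0.26 (adjusted p = 0.253), and Sppl2a, which cleaves its membrane stub, by 0.36 (0.0825; trend and robust fitting gave 0.0243).

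On the route from interferon gamma to Ciita, 2 of 9 measured genes were higher and 1 lower, beside 4.3% and 1.2% of all genes. Ifngr2, the signalling chain of the interferon gamma receptor, read 9.06, 9.17 and 9.20 in wild type and 7.59, 7.90 and 8.14 in knockout-labelled arrays. It fell by 1.27 on the log2 scale (SE 0.14, adjusted p = 0.00096) and passed in all 6 fits with an array left out. Jak2, the kinase bound to that chain, rose by 0.55 (SE 0.10, adjusted p = 0.0154), a call lost without knockout replicate 2 (0.0748) or 3 (0.0798). The other receptor chain and kinase, named after their values were seen, were Ifngr1 (-0.021, adjusted p = 0.952) and Jak1 (0.20, 0.313), and neither passed. Irf8, a transcription factor of B cells and dendritic cells that also acts in T cells, rose from 4.94 ± 0.29 to 5.74 ± 0.14 (0.80, SE 0.15, adjusted p = 0.0162). That call was lost without wild type replicate 1 (0.0508), knockout replicate 1 (0.0595) or knockout replicate 3 (0.0809), after another quantile normalization (0.0567) and with the mean of its probe sets (0.0962). Irf4 (0.35, adjusted p = 0.106) and Prdm1, a repressor of Ciita (0.58, adjusted p = 0.141, or 0.0141 without wild type replicate 2), did not pass.

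Class I presentation, which every T cell uses for its own surface, gave no called gene among 13 measured. In limma 0 passed, against 5.5% of all genes called in either direction, and 13 genes are too few to set the list apart from that share. Of the 13, 4 were at an unadjusted p under 0.05, and the median difference was 0.10. Erap1, the peptide trimmer of the endoplasmic reticulum, differed by 0.37 (adjusted p = 0.0737; trend and robust fitting gave 0.0153). Psmb10 differed by 0.40 (0.149, or 0.0268 without wild type replicate 2), Tapbp by 0.32 (0.151), Tap1 by 0.29 (0.17) and Nlrc5, the class I counterpart of Ciita, by 0.32 (0.412).

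**Figure D4:**
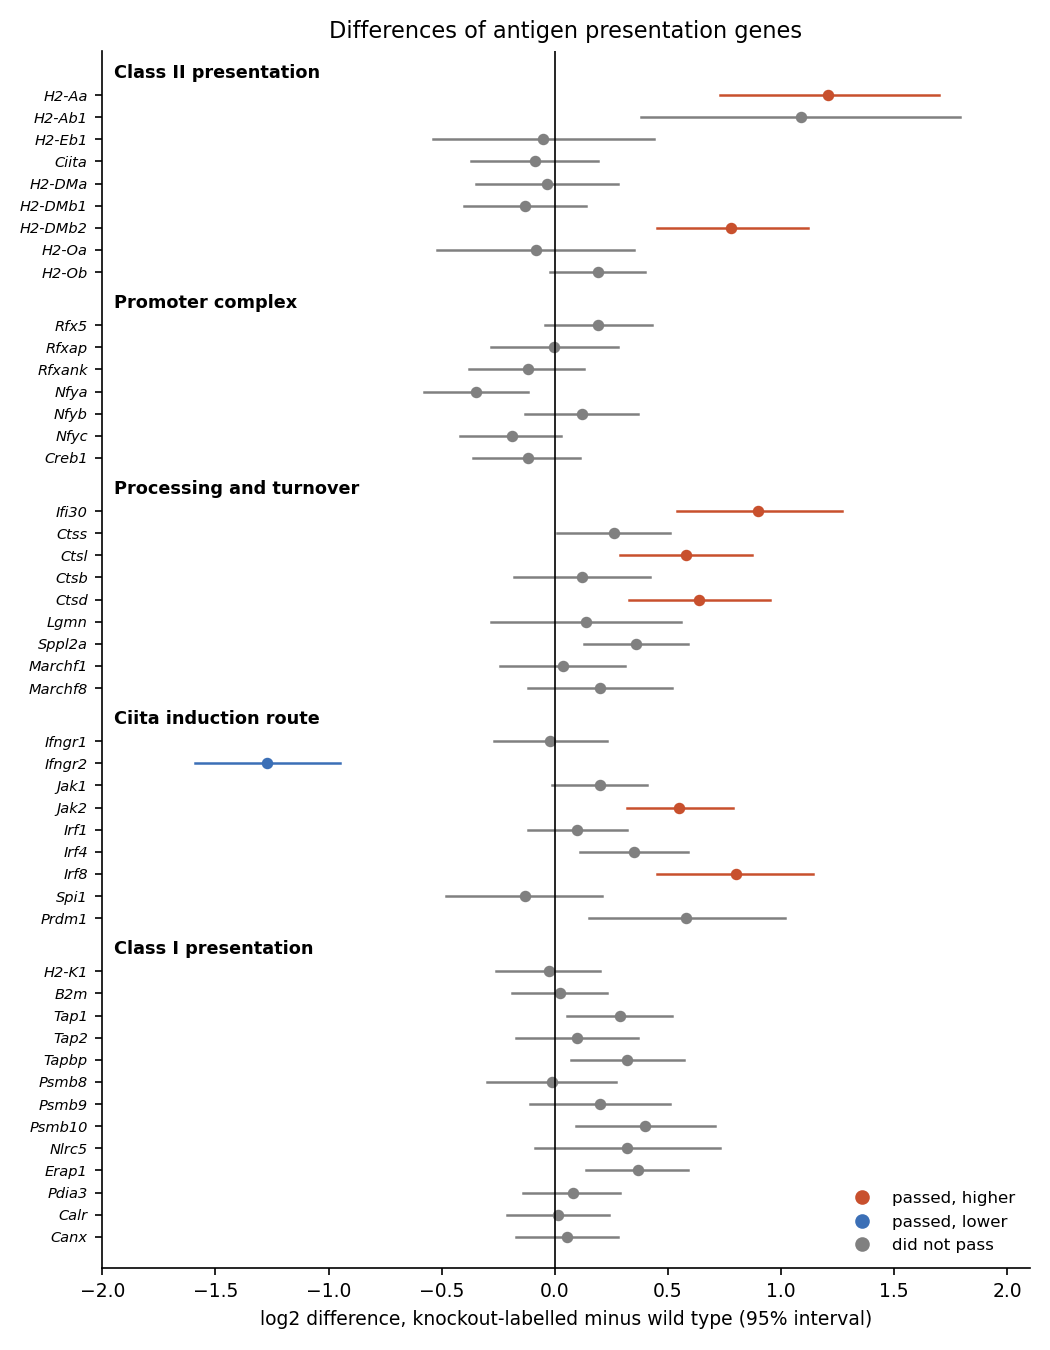
Log2 difference, knockout-labelled minus wild type (horizontal axis, with 95% interval), of the measured class II genes and of 4 related gene lists; colour marks genes that passed. H2-Aa at 1.21 and Ifi30 at 0.90 stand highest among the genes that passed, and Ifngr2 at -1.27 lowest.

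Markers of cells that make class II molecules were set beside these values. Of 17 B cell markers 14 were measured, 3 were higher and 2 lower, beside 4.3% and 1.2% of all genes. Cd22, an inhibitory receptor of B cells, read 4.18, 4.66 and 4.74 in wild type and 5.90, 5.67 and 5.89 in knockout-labelled arrays (1.29, SE 0.16, adjusted p = 0.00143). Ms4a1, which encodes CD20, read 3.23, 3.15 and 3.35 against 4.67, 4.24 and 4.21 (1.13, SE 0.14, adjusted p = 0.00168). Both passed in every fit with an array left out, although Ms4a1 fell short of the background guide in the wild type group.

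Cd79a, a signalling chain of the B cell receptor, read 4.76, 4.95 and 5.55 in wild type and 6.22, 5.65 and 5.98 in knockout-labelled arrays (0.86, SE 0.21, adjusted p = 0.047). The 6 arrays ranked in the same order for Cd79a as for H2-Aa. Its call held without wild type replicate 3 and was lost in the other 5 such fits (0.0511 to 0.165) and after another quantile normalization (0.136) or median centring (0.0612).

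Other B cell genes moved the opposite way. Ighm, the heavy chain of the same receptor, fell from 10.98 ± 0.11 to 10.38 ± 0.06 (-0.60, SE 0.10, adjusted p = 0.00892). The call, but not the fall, was lost with the mean of its probe sets (-1.06, 0.18). Of 7 probe sets that name Ighm alone, 2 passed over all probe sets, both lower. In the probe set used, the wild type level of Ighm was near that of Cd8a (11.12) and far above that of Cd79a (5.09). The other probe sets that name Ighm alone had wild type means from 3.51 to 10.91. Which cells the Ighm RNA came from was not tested. Pou2af1, a B cell coactivator, fell by 0.52 on the log2 scale (SE 0.13, adjusted p = 0.045), a call that held without wild type replicate 2 and was lost in the other 5 such fits (0.0549 to 0.172). Of the remaining B cell markers, Pax5, Ebf1, Cr2, Fcrla and Spib lay below the background guide in both groups. The summed linear signal of the 14 markers, which Ighm dominates, ran from 2289 to 2588 in wild type and from 1715 to 1869 in knockout-labelled arrays. Without Ighm, a choice made after its value was seen, the sum of 13 markers ran from 365 to 387 and from 426 to 479.

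Dendritic cell markers were divided. Itgax, an integrin of dendritic cells that T cells and NK cells can also carry, rose from 4.38 ± 0.23 to 5.52 ± 0.26 (1.14, SE 0.16, adjusted p = 0.00324). Itgam, the related integrin of myeloid cells, rose by 0.60 (SE 0.12, 0.0214), a call lost without wild type replicate 1 or 3 (0.0637 and 0.0816), knockout replicate 1 or 2 (0.0906 and 0.0732) and after another quantile normalization (0.127). The other 7 of 9 measured markers did not pass, and 5 of these lay below the guide in both groups, among them Flt3 (3.52 and 3.37) and Zbtb46 (3.31 and 3.43), which define conventional dendritic cells. Cd209a differed by -0.37 (adjusted p = 0.192) and Sirpa by -0.49 (0.425, or 0.0239 without wild type replicate 1). The summed signal of the 9 markers ran from 337 to 472 in wild type and from 350 to 386 in knockout-labelled arrays. Cd209a dominates that sum, at 8.10 in wild type and 7.73 in knockout-labelled arrays, so the sum says little of the other markers.

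Of 7 plasmacytoid dendritic cell markers, 3 were higher, beside 4.3% of all genes. These were Ly6c2 (0.71), Tcf4 (0.77) and Bst2 (0.75), of which Ly6c2 and Bst2 are also made by T cells. Tcf4 lost its call without knockout replicate 2 or 3 (0.0587 and 0.0647), and Bst2 lost its call when wild type replicate 3 (0.0673), knockout replicate 2 (0.0756) or knockout replicate 3 (0.0863) was left out. Siglech, the defining marker, lay below the guide at 3.28 and 3.26, Lair1 differed by -0.35 and Ccr9 by -0.30. The summed signal of the list, which Ly6c2 and Bst2 dominate, ran from 3089 to 3641 in wild type and from 5164 to 5992 in knockout-labelled arrays. The median difference of the 7 markers was -0.019.

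Monocyte and macrophage markers gave 0 called genes of 11 in limma, against 5.5% of all genes called in either direction. The 11 genes are too few to set the list apart from that share. Of the 11, 5 lay below the background guide in both groups, among them Adgre1 (3.76 and 3.16). At an unadjusted p under 0.05 there were 2, both lower. Adgre1 differed by -0.60 (adjusted p = 0.115, or 0.0317 without wild type replicate 3) and Csf1r by -0.40 (0.23), while Lyz2 (-0.11), C1qc (-0.34), Cd68 (0.11) and C1qa (0.15) did not pass. The summed signal ran from 169 to 194 in wild type and from 163 to 184 in knockout-labelled arrays. The part of carried-over antigen-presenting cells in the rise of H2-Aa and H2-DMb2 was not tested. Beside that rise, 3 of 14 B cell markers were higher (Cd22, Ms4a1 and Cd79a), 2 were lower (Ighm and Pou2af1) and 9 did not pass. Of 9 conventional dendritic cell markers 2 were higher (Itgax and Itgam) and 7 did not pass. Over all genes 4.3% were higher and 1.2% lower.

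**Figure D5:**
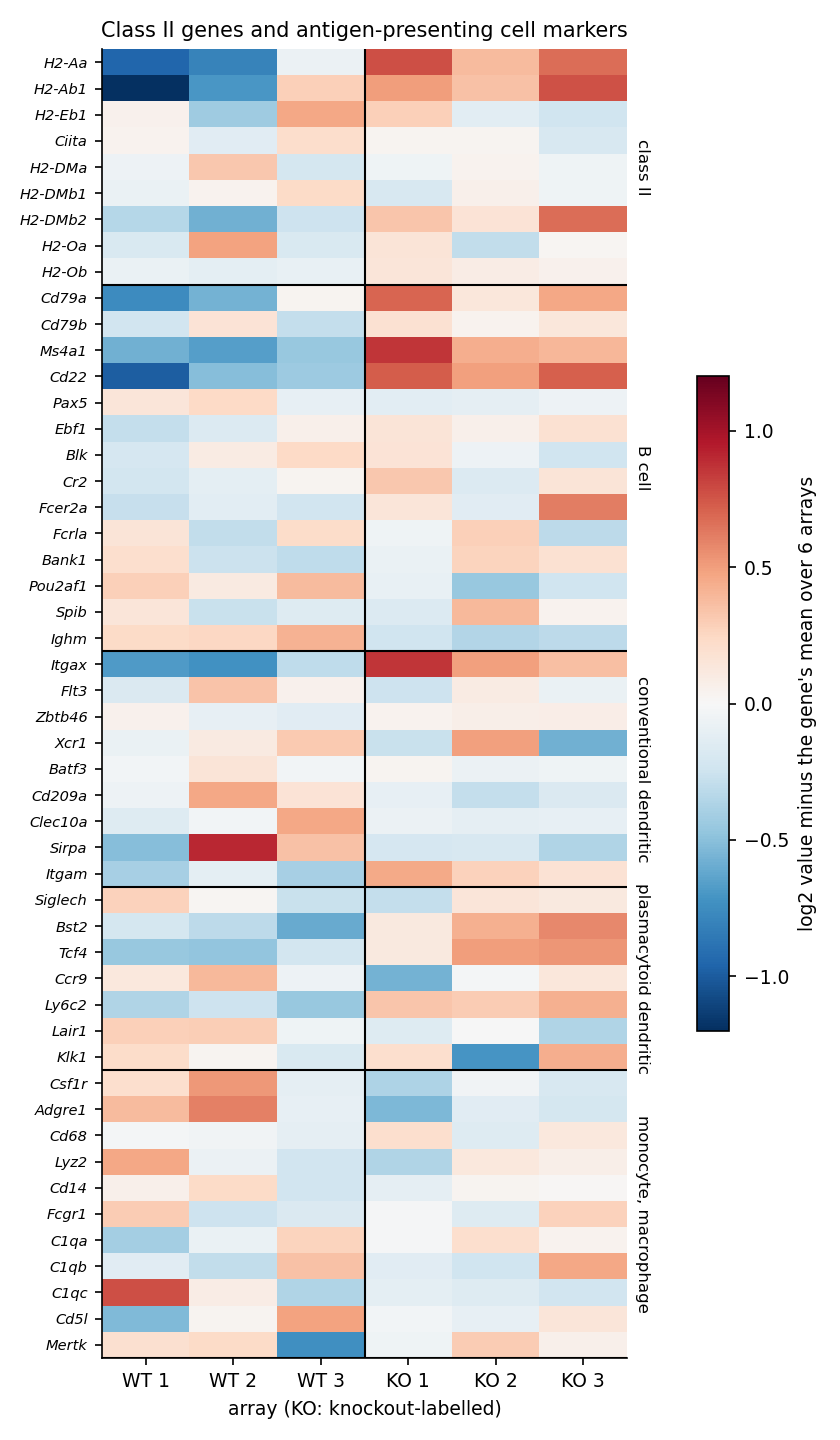
Log2 value of each gene minus its mean over the 6 arrays (colour) for the class II genes and the markers of antigen-presenting cells (rows), by array (columns). H2-Aa, H2-Ab1, Cd79a, Ms4a1, Cd22 and Itgax are high in knockout-labelled arrays, and Ighm and Pou2af1 are low.

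Among T cell markers, Cd5, which restrains T cell receptor signals, fell by 1.01 on the log2 scale (SE 0.10, adjusted p = 0.000376). The other 8 measured CD8+ T cell genes did not pass, with differences of 0.31 for Thy1, 0.24 for Cd2, -0.18 for Cd8a, -0.094 for Cd3e and -0.048 for Cd8b1. Of the CD4+ T cell list, Il2ra, a receptor chain that activated T cells carry, rose by 0.69 (adjusted p = 0.0194), a call lost without knockout replicate 1, 2 or 3 (0.0837, 0.0621 and 0.0707) and after another quantile normalization (0.0559). Cd40lg fell by 0.88 on the log2 scale (0.00801), from 3.93, just above the background guide of 3.83, to 3.05, below it. Ctla4 differed by -0.54 (0.0752, or 0.00948 without wild type replicate 2), Foxp3 by -0.25 and Zbtb7b by -0.058.

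The genes whose pattern over the 6 arrays was most like the mean of H2-Aa, H2-Ab1 and H2-Eb1 were found by the root mean square difference of centred log2 values. In order they were Fgfr1 (0.092), Aldh7a1 (0.115), Zcchc24 (0.117), Cd79a (0.118), Snord91a (0.136), Ftx (0.143), Irf8 (0.172) and Gzmb (0.173). Fgfr1, for example, read 3.79, 3.78 and 4.55 in wild type and 5.11, 4.77 and 4.82 in knockout-labelled arrays, so that wild type replicate 3 again stood between the groups. For H2-Aa alone, a profile chosen after the values were seen, the nearest were Ptprj (0.160), Wfikkn2 (0.171), Epas1 (0.177), Vegfa (0.179), Cd79a (0.186), Itga2 (0.191), Cd22 (0.195) and Spry2 (0.196), beside a median of 0.69 over all genes. Cd79a stood on both lists. The B cell genes Pax5, Fcrla, Ighm and Pou2af1 lay at 0.799, 0.727, 0.936 and 0.898 from H2-Aa, farther than the median gene. Pax5 and Fcrla lay below the background guide in both groups. Ighm and Pou2af1 were called lower and H2-Aa higher, so their distances restate those calls. The remaining B cell markers lay nearer than the median gene, with Ms4a1 at 0.254, Ebf1 and Fcer2a at 0.516 and Cr2 at 0.546. Cd79b lay at 0.61, Bank1 at 0.661, Spib at 0.677 and Blk at 0.687. These distances describe 6 arrays that share a group difference.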

How the data were processed

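The deposited table held log2 expression values of 41345 probe sets on 6 arrays, which the authors made with RMA. The submitters' processing notes also list R 3.1.1. RMA subtracts background, equalises array distributions and summarises probes, and it compresses differences of dim probe sets. The build, annotation version and any later filtering were not stated in any source used. Probe sets naming 1 gene symbol (23521) were kept, with the highest mean per gene, which gave 22180 genes. Groups were taken from the labels. Each gene was tested by the moderated statistics of limma 3.58.1 (R 4.3.3), without covariates, with Benjamini-Hochberg adjustment over all 22180 genes and a threshold of 0.05, and a fold is the log2 difference turned back to the linear scale. The code was tested on simulated data. No array repeated another. The number of arrays limits the precision. Promoter sequences are those of RefSeq on GRCm38.p6, and array probe sets carry no coordinates here.

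The class II genes and the other lists were chosen with earlier results of these data known. Named genes were all class II genes, the 5 genes with the smallest p in each other list, the defining markers, and the 8 genes of most like pattern. Cd74 is missing from that pattern because its probe set names several genes. Listed genes without a probe set of their own are not reported here. Alternatives were leaving out each array, the replicate number as a block, quantile normalization, median centring, filters at the 25th and 50th percentile of level, trend with robust fitting, array weights, and other uses of probe sets.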

Additional observations from a re-analysis of the deposited data

How the results depend on the processing

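H2-Aa and H2-DMb2 stayed higher in knockout-labelled arrays under every alternative run. H2-DMb2 did not pass with every probe set tested separately (0.78, adjusted p = 0.0513). With the replicate number as a block, H2-Ab1 passed (1.09, adjusted p = 0.0238) and processing genes fell to 1 call. Over all genes, arrays of the same number did not deviate together (r = -0.074, -0.157 and -0.074). The labels state no pairing, and these correlations, taken over all genes, cannot exclude one. H2-DMb1 lies below the 50th percentile filter and has no value there.

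Under the other settings, calls in a list moved as follows. Testing every probe set separately left 1 higher class II gene, 1 processing gene, 3 B cell, 1 conventional dendritic and 1 CD4+ T cell marker. Quantile normalization left 1 conventional dendritic and 1 CD4+ T cell marker, and median centring 1 processing gene. The 50th percentile filter gave 1 promoter complex and 1 class I gene, trend with robust fitting 1 and 2, and array weights 1 class I gene. Array weights turned H2-DMa to 0.042 and Siglech to 0.061, and quantile normalization turned Cd68 to -0.09 and Cd4 to -0.0031, none of them called. The causes were not tested.

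With 1 array left out, log2 differences ran from 1.04 to 1.48 for H2-Aa, 0.75 to 1.50 for H2-Ab1, 0.64 to 0.90 for H2-DMb2, -0.28 to 0.16 for H2-Eb1, -0.15 to 0.12 for H2-DMa and -0.19 to 0.14 for H2-Oa. Uncalled markers also changed sign: C1qa -0.018 to 0.32, Cd4 -0.035 to 0.18, Cd8b1 -0.087 to 0.0039, Lyz2 -0.25 to 0.096, Siglech -0.16 to 0.12 and Zbtb7b -0.12 to 0.006. Calls ran from 0 to 3 for higher class II genes, 0 to 2 for processing, 1 to 4 for the Ciita route, 0 to 1 for class I, 3 to 4 for B cell, 1 to 2 for conventional dendritic, 1 to 3 for plasmacytoid dendritic, 0 to 1 for monocyte and macrophage and 1 to 3 for CD4+ T cell markers. Over all genes 1220 were called, and 780 without wild type replicate 3, 745, 696 and 615 without knockout replicates 1, 2 and 3, and 751 with every probe set tested separately. Scaling moved the median difference of all genes from -0.012 to -0.058 (quantile) and -0.062 (median centring).

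With 3 arrays a group, the number of arrays limits the precision. Signals near background limit H2-DMb1, Ms4a1, Cd40lg, Adgre1 and most defining markers of dendritic cells.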
